A study of Macaca mulatta with 16 samples.

Results

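Combined exposure of the fetal lung to intraamniotic lipopolysaccharide (LPS) and maternal betamethasone-acetate (Beta-Ac) was compared with no exposure in preterm rhesus macaques, across all genes measured by RNA sequencing. The animals were chosen by their labels, as 3 fetuses that received both agents and were delivered 5 days later and 4 fetuses delivered at 131 to 135 days of gestation without intervention. These 7 animals are part of a series of 16 fetuses in 5 groups, which also holds fetuses delivered 5 days or 16 hours after LPS alone and near-term fetuses. The question was which genes of the preterm lung differ after prenatal inflammation and a low-dose antenatal corticosteroid given together. In the combined group (LPS + Beta-Ac, animals 248, 249 and 255), 1 mg of bacterial LPS was injected into the amniotic fluid and the dam was given 0.125 mg/kg of Beta-Ac in the muscle at 126, 127 and 126 days, with delivery at 131, 132 and 131 days. The preterm controls (animals 092, 101, 113 and 209) received neither agent and were delivered at 133, 131, 135 and 135 days. Fetuses given LPS alone (LPS 5d, animals 239, 240 and 242) and untreated term controls (animals 200 and 201, delivered at 156 and 157 days) are used below where a direct test or a side-by-side value needs them. Each animal gave 1 library from snap-frozen left lung. Fetuses given Beta-Ac alone were not analysed here, so against the preterm controls the parts of the 2 agents cannot be told apart.

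LPS, a component of the outer membrane of Gram-negative bacteria, is bound by CD14 and sensed by the receptor TLR4, and cells that sense it release cytokines and chemokines that draw neutrophils and monocytes into the tissue. Betamethasone acts through the glucocorticoid receptor, which represses many inflammatory genes, induces genes of steroid response and speeds differentiation of the fetal airspace epithelium, the reason why it is given before preterm birth. At this age the lung is in the saccular stage, when the mesenchyme between the airspaces thins, alveolar type 2 cells begin to make surfactant and alveolar type 1 cells flatten against the capillaries.

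Libraries of the 2 groups were of like depth, with 24354892 to 27408405 counts in the exposed animals and 20169363 to 28348816 in the controls. Levels are given as CPM, counts of a gene scaled to a common library total after scaling of the libraries, always in the order 248, 249 and 255 for the exposed animals and 092, 101, 113 and 209 for the controls. Defining lung markers were high in all 7 animals. NKX2-1, the transcription factor of lung epithelium, lay between 76.6 and 165.8 CPM, and the surfactant gene SFTPC between 2060 and 7207 CPM. Preterm control 209 stood apart from the other controls, and in a principal component analysis of the 7 animals it lay alone on the second component, which held 19% of the variance. Airway and cartilage transcripts were high in its library, with 203 CPM of the club cell gene SCGB3A1 against 1.24 to 4.48 CPM in the other controls, a gene picked after its values were seen. Transcripts of the Y chromosome summed to 953 to 1028 CPM in 3 of the 4 controls (092, 101 and 113) and 1 of the 3 exposed animals (249). They summed to 2.84 CPM in control 209 and to 2.18 and 12.8 CPM in exposed animals 248 and 255. Results below without 209, or against 209 alone, therefore also change the balance of Y-linked transcripts between the groups. The part of this balance in those results was not tested. None of the 9 Y-linked genes tested was called between the groups. All 9 were lower in the exposed group, with a median log2 fold change of -3.07. Sex is not part of the labels used here.

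A gene was called changed when its adjusted p in limma, a linear model fitted across all genes, was below 0.05 and its fold change was at least 2. Of 19199 genes tested, 1247 were called (6.50%), 778 higher in LPS + Beta-Ac (4.05%) and 469 lower (2.44%). Changes upward were the larger ones. At least 4-fold changes were found for 275 of the genes called higher and 46 of those called lower, and at least 16-fold changes for 40 and 1. The median log2 fold change was 1.70 among the genes called higher, -1.26 among those called lower and -0.01 over all genes tested. Without a minimum fold, 1364 genes were higher and 1953 lower at an adjusted p below 0.05, so the genes that passed with a change under 2-fold were mostly lower. The groups did not overlap for 742 of the 778 genes called higher and for 446 of the 469 called lower, while over all genes tested every exposed animal lay above every control for 14.7% and below every control for 16.1%. Genes called higher made up 6.14% of all CPM in the exposed lungs and 1.83% in the controls, and genes called lower 1.19% and 2.89%.

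**Figure D1:**
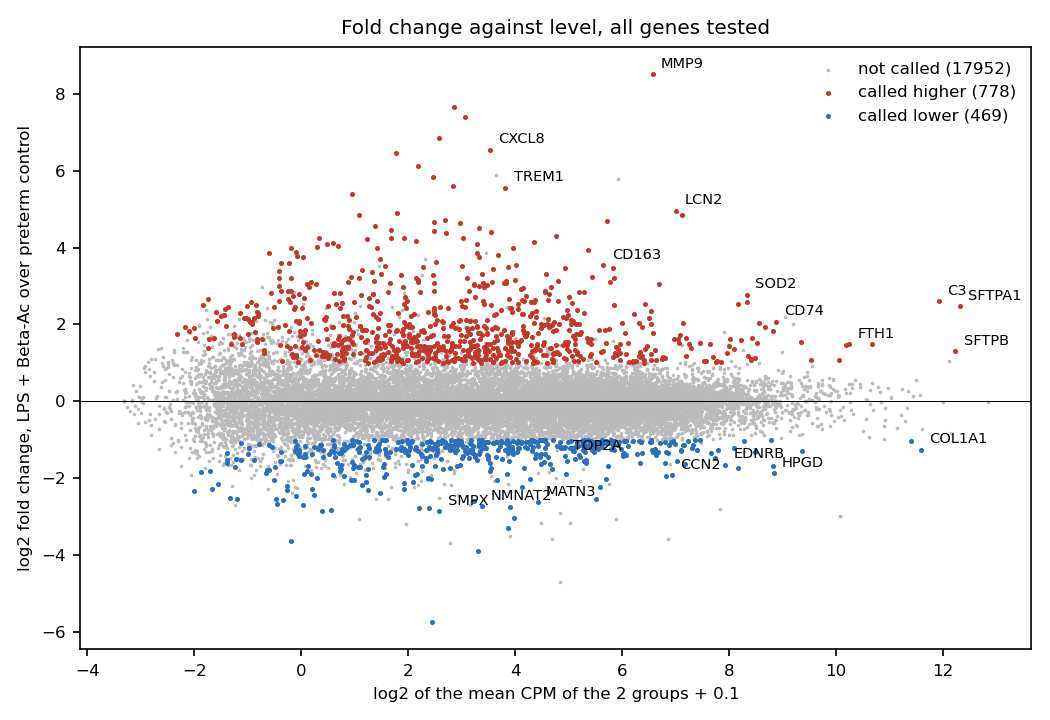
Each point is 1 of the 19199 genes tested, with the log2 of its mean CPM over both groups on the x axis and the log2 fold change of LPS + Beta-Ac over preterm control on the y axis. The 778 genes called higher (red) reach further from 0 than the 469 called lower (blue), and SFTPA1, SFTPB and C3 lie furthest right among the genes called higher.

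Genes of monocytes and macrophages had the highest median change of the 51 gene lists described. Of 26 genes tested from a list of this lineage, 20 were called higher and 0 lower, with a median log2 fold change of 2.52 against -0.01 over all genes tested. CD163, a scavenger receptor for hemoglobin, measured 92.8, 122 and 61.9 CPM in the exposed animals and 11.2, 4.39, 9.04 and 7.20 CPM in the controls. Its lowest exposed animal stood far above its highest control, and its log2 fold change was 3.55 ± 0.32 (SE, n = 3 and 4; limma adjusted p = 1.1e-05). CD68, a lysosomal protein of macrophages, was at 71.7, 164 and 61.8 CPM against 17.8, 16.0, 15.1 and 14.2 CPM (2.51 ± 0.45), so animal 249 was well above the other exposed animals and these again above all controls. MARCO, a scavenger receptor for bacteria, had 317, 921 and 107 counts in the exposed animals and 0 counts in each control, and was at least 561-fold higher, with the controls set at 3 counts over the group. The chitinase gene CHIT1 measured 39.0, 168 and 98.4 CPM and 4.27, 3.74, 1.84 and 3.75 CPM (4.71 ± 1.23), and GPNMB, a glycoprotein of lipid-laden macrophages, 154, 510.5 and 147 CPM and 7.80, 7.03, 8.76 and 7.64 CPM (4.85 ± 1.05). Both genes were above all controls in each exposed animal but spread over a range of more than 3-fold among them. The 3 subunits of C1q, which starts the classical complement pathway and is made by tissue macrophages, moved together, with 2.08 ± 0.27 for C1QA, 2.56 ± 0.28 for C1QC and 2.85 ± 0.30 for C1QB. Members not called included LYZ, for which control 209 had 148 CPM against 28.2 to 56.0 CPM in the exposed animals, and FABP4 and APOE; these 3 were picked after their values were seen. In whole lung, more macrophages and more RNA per macrophage cannot be told apart. With 1 animal left out at a time, CHIT1 lost its call without 249, 255 or 113 (4.25, 4.61 and 4.44).

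Genes of neutrophils rose as well. Of 22 tested, 16 were called higher and 0 lower, with a median of 2.33. MMP9, a gelatinase stored in neutrophil granules and also made by macrophages, showed the largest change among genes with at least 10 counts in both groups. It measured 157, 308 and 106 CPM in the exposed animals and 0.828, 0.508, 0.461 and 0.109 CPM in the controls, a log2 fold change of 8.51 ± 0.90 (limma adjusted p = 6.2e-05). S100A9, a subunit of the antimicrobial calprotectin, was at 144, 41.9 and 45.9 CPM against 3.22, 3.56, 7.73 and 3.42 CPM (3.94 ± 0.49), highest by far in animal 248. TREM1, a receptor that amplifies innate responses, was at 26.7, 41.0 and 14.8 CPM against 1.09, 0.185, 0.638 and 0.327 CPM (5.56 ± 0.47), highest in 249. The formyl peptide receptor FPR1 had 230, 184 and 112 counts in the exposed animals and 4, 0, 11 and 5 in the controls, and FPR2 177, 103 and 41 counts against 3, 0, 2 and 1. The groups did not overlap for any of these genes. GPR84, a receptor for fatty acids on myeloid cells, had 397, 354 and 191 counts against 3 in all controls together, and the survival gene BCL2A1 448, 409 and 255 counts against 9, 0, 14 and 7.

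Genes of neutrophil granules separated the exposed animals from each other. MPO, myeloperoxidase of the primary granules, measured 26.3, 3.95 and 0.655 CPM and overlapped with the controls at 0.305, 0.139, 0.284 and 1.24 CPM (3.28 ± 0.95). LTF, lactoferrin of the secondary granules, measured 243, 24.2 and 64.6 CPM against 13.4, 15.5, 21.1 and 21.3 CPM (2.05 ± 0.62), so 249 was close to the controls and 248 more than 10 times higher. CXCR2, the receptor for CXCL8, was at 31.3, 22.3 and 26.1 CPM against 4.75, 16.0, 19.1 and 17.2 CPM and was not called (1.06 ± 0.42, limma adjusted p = 0.099). MPO lost its call without 248, 249, 092, 101 or 113 (1.97, 3.35, 3.21, 2.93 and 3.18), and LTF lost its call without 248, 255, 092, 101 or 113 (1.18, 2.13, 1.92, 1.99 and 2.14). MPO was picked after its values were seen. Over all 778 genes called higher, animal 248 was the highest exposed animal for 383 and 249 for 314, and 255 was the lowest for 500. The median difference of these genes from the controls was 1.89 on the log2 scale in 248, 1.80 in 249 and 1.43 in 255. For the 469 genes called lower the same medians were -1.24, -1.37 and -1.21. How often each exposed animal was highest or lowest over all genes tested was not counted.

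Part of the receptors that sense bacteria and of the cytokines made downstream of them were called higher. TLR4, which senses LPS, measured 32.3, 23.2 and 20.8 CPM in the exposed animals and 6.19, 5.41, 4.26 and 4.04 CPM in the controls (2.33 ± 0.25), and its co-receptor CD14 154, 170.1 and 119.9 CPM and 28.7, 30.1, 30.4 and 43.5 CPM (2.16 ± 0.20). Neither gene overlapped between the groups. With TLR2, RELB and REL these made 5 of 20 genes of LPS sensing and NF-κB that were called, all higher, and the median of the list was 0.35. Among 19 inflammatory cytokines 11 were called higher and 0 lower, with a median of 1.29. IL1B was at 38.1, 6.41 and 11.9 CPM against 1.79, 0.601, 1.14 and 0.764 CPM (3.76 ± 0.55), highest in 248 and above all controls in each animal. IL1A had 57, 24 and 48 counts against 1, 2, 1 and 0, and TNF 51, 16 and 26 counts against 3, 0, 6 and 6. IL6 was low throughout, with 30, 7 and 6 counts against 1, 1, 7 and 1, and its groups overlapped although it was called. The inhibitors of these cytokines rose in the same lungs. IL1R2, a decoy receptor for IL-1, had 455, 116 and 268 counts against 8, 17, 7 and 6, and IL1RN, the receptor antagonist, measured 65.4, 30.8 and 24.1 CPM against 17.9, 12.2, 16.6 and 13.6 CPM (1.29 ± 0.29). IL10, which restrains macrophages, was at 2.82, 2.50 and 1.77 CPM against 0.958, 0.601, 1.24 and 0.655 CPM (1.41 ± 0.32). In a list of 19 brakes on inflammation 7 genes were called higher and 0 lower, with a median of 0.96. REL lost its call without 248 (1.55), IL6 lost its call without 248, 092, 101 or 209 (limma adjusted p = 0.21, 0.092, 0.088 and 0.081), and IL1RN lost its call without 248 (0.87).

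Of 28 chemokines 13 were called higher and 1 lower, with a median of 1.31. CXCL8, the main attractant of neutrophils, had 626, 462 and 726 counts in the exposed animals and 6, 1, 3 and 11 in the controls, an even rise in the 3 animals. CXCL13, which guides B cells, had 532, 59 and 118 counts against 2 in all controls together, and was uneven. CCL19, an attractant of T cells and dendritic cells, had 102, 57 and 74 counts against 5, 2, 2 and 2. CCL2, which recruits monocytes, measured 88.7, 69.9 and 35.8 CPM against 11.1, 10.7, 7.84 and 5.20 CPM (2.85 ± 0.40), and CXCL17, a chemokine of mucosal epithelium, 186, 136 and 147 CPM against 32.4, 28.0, 31.4 and 29.6 CPM (2.35 ± 0.21). Each of these 5 was above all controls in every exposed animal. CXCL14, made by epithelium and fibroblasts in the absence of inflammation, went the other way, with 13.1, 13.1 and 21.0 CPM against 61.9, 44.7, 63.7 and 152 CPM (-2.23 ± 0.50). Control 209 was the highest animal for this gene, and the other controls were also above the exposed animals.

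More of the acute phase and complement genes tested were called higher than were not called. LCN2, lipocalin 2, which withholds iron from bacteria, measured 357, 166 and 229 CPM in the exposed animals and 9.54, 5.04, 5.67 and 12.1 CPM in the controls (4.96 ± 0.36, limma adjusted p = 3.1e-06). C3, the central component of complement, measured 7970.0, 5558 and 6610.0 CPM and 1194, 1038, 998 and 1112 CPM (2.62 ± 0.18, limma adjusted p = 2.5e-06), and its controls lay close together. CFB, its partner in the alternative pathway, measured 893, 380.0 and 403 CPM and 110.0, 56.8, 92.1 and 92.9 CPM (2.59 ± 0.30). In all, 11 of 19 acute phase and antimicrobial genes were called higher, with a median of 2.05, and 11 of 20 complement genes, with a median of 1.31, and none of either list was called lower. The receptors C3AR1 and C5AR1 were part of this rise (3.56 ± 0.33 and 1.97 ± 0.20). These lists share members with lists above, so some genes are counted more than once. S100A9 and LTF are also in the neutrophil list, and C1QA, C1QB and C1QC in the macrophage list. LCN2 is also in the type 2 identity and glucocorticoid response lists below. Regulators that protect host cells, CD55 and CD59, were not called (0.30 ± 0.22 and -0.13 ± 0.18); these regulators and C5AR1 were picked after their values were seen. The serum amyloid genes SAA1 and SAA2 had at most 74 counts in an exposed animal and at most 5 in a control, and as near-identical copies their separate values are uncertain.

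Some genes of class II antigen presentation rose, and most of the interferon response were not called. CD74, the invariant chain that guides class II molecules, was at 874, 882 and 533 CPM against 189, 186, 156 and 176 CPM (2.08 ± 0.21), MAMU-DRA at 358, 291 and 238 CPM against 112, 115, 95.3 and 95.9 CPM (1.48 ± 0.16), and CIITA, the transcriptional regulator of both, at 35.5, 28.6 and 25.6 CPM against 11.3, 11.3, 12.4 and 11.1 CPM (1.36 ± 0.32). These 3 were above all controls in every exposed animal, with MAMU-DRA uncertain as a member of a family of near-identical genes. CD86, a costimulatory ligand for T cells, was at 13.9, 17.8 and 8.94 CPM against 2.31, 1.76, 2.13 and 2.11 CPM (2.62 ± 0.24), and 5 of 12 genes of the list were called higher, with a median of 0.88. Of 25 interferon response genes only IDO1 and OASL were called, both higher, beside 4.05% called higher over all genes tested. The median was 0.28. IDO1, which degrades tryptophan, was at 97.0, 136 and 62.8 CPM against 9.67, 11.1, 9.22 and 13.9 CPM (3.11 ± 0.29, limma adjusted p = 1.1e-05). The classical target MX1 was at 138, 82.2 and 91.8 CPM against 71.5, 89.6, 114 and 56.4 CPM (0.34 ± 0.44, not called), and IFIT1 at 106, 120.1 and 91.5 CPM against 92.7, 125, 135 and 114 CPM (-0.14 ± 0.30, not called); these 2 were picked after their values were seen. OASL lost its call without 248, 249, 092 or 113 (limma adjusted p = 0.11, 0.073, 0.071 and 0.072).

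Lymphocyte genes showed changes of a smaller size. Of 22 tested, 10 were called higher and 0 lower, with a median of 1.04. Their summed level overlapped between the groups, at 330 to 440 CPM in the exposed animals and 293 to 374 CPM in the controls. CD4, found on helper T cells and also on macrophages, measured 63.8, 54.5 and 39.0 CPM against 23.4, 15.9, 15.3 and 13.8 CPM (1.61 ± 0.28), and GZMB, granzyme B of cytotoxic cells, 29.0, 33.0 and 23.1 CPM against 13.2, 13.4, 8.09 and 7.60 CPM (1.45 ± 0.21). Each exposed animal was above each control for both genes. The T cell receptor subunit CD3E, a defining T cell marker, was at 12.7, 11.1 and 9.17 CPM against 9.02, 9.89, 6.84 and 6.76 CPM and was not called (0.44 ± 0.19), and MS4A1, a defining B cell marker, was also not called (1.40 ± 0.48, limma adjusted p = 0.059). Erythroid genes had a median of 0.45 with 1 of 16 called higher, and the α-globin gene HBA1 lay between 192.7 and 567.1 CPM over the 7 animals. MS4A1 was called without control 092 (1.67).

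**Figure D2:**
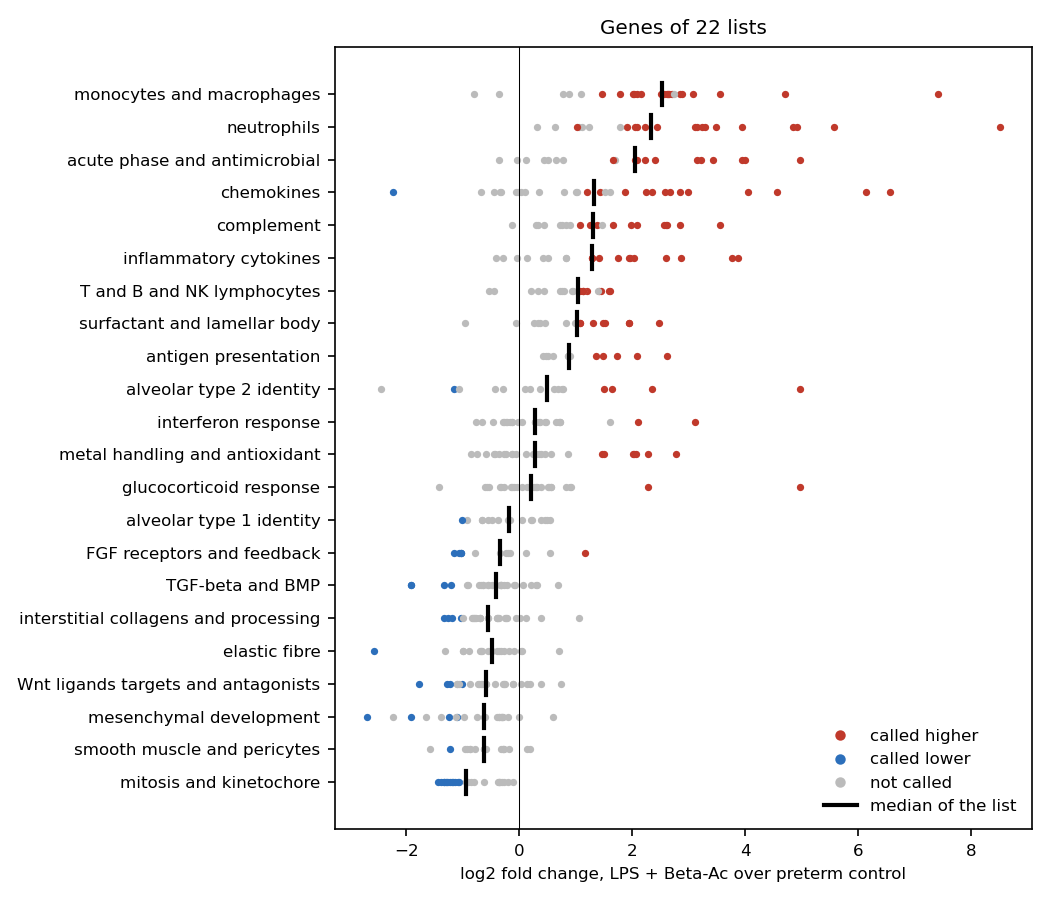
Each point is a gene tested from 1 of 22 lists, placed by its log2 fold change of LPS + Beta-Ac over preterm control, with the median of each list as a black bar. Lists of myeloid cells and acute phase genes lie to the right with medians from 2.05 to 2.52, while mitosis lies furthest left with a median of -0.94.

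Of 18 genes of surfactant and the lamellar body 8 were called higher, 0 lower and 10 not called, with a median of 1.02. SFTPA1, a surfactant protein that opsonizes microbes, measured 11650.0, 10340.0 and 4052 CPM in the exposed animals and 956, 929.6, 2570.0 and 1793 CPM in the controls (2.47 ± 0.58); animal 255 was lowest of the exposed and still above all controls, and the level is uncertain where reads could belong to a near-identical copy. SFTPB, needed for the surface film, was evenly raised, at 7640.0, 6316 and 6639 CPM against 2831, 2583, 3051 and 2700.0 CPM (1.30 ± 0.20, limma adjusted p = 0.00056). SFTPD, an opsonin like SFTPA1, was at 2754, 2371 and 2030.0 CPM against 777, 628, 1210.0 and 878 CPM (1.48 ± 0.22). SFTPC, a marker of type 2 cells, was at 7207, 6909 and 3892 CPM against 2134, 2060.0, 4108 and 3468 CPM. It was not called, with animal 255 below control 113 (1.04 ± 0.40, limma adjusted p = 0.09). ABCA3, which loads lipid into the lamellar body, was at 662, 399.5 and 586 CPM against 175, 159.5, 190.1 and 239.5 CPM (1.51 ± 0.19), and LPCAT1, which remodels the lipid, at 693, 403 and 429 CPM against 235, 213, 249 and 296 CPM. LPCAT1 did not overlap between the groups and just missed the minimum fold of 2 (1.00 ± 0.27, limma adjusted p = 0.019). LAMP3, a lamellar body membrane protein, overlapped (0.36 ± 0.44, not called), with its highest value, 109 CPM, in control 209. The protease CTSH, which processes surfactant proteins, and SFTA2, a secreted surfactant-associated protein, were above all controls in every exposed animal (1.94 ± 0.22 and 1.94 ± 0.38). SFTPA1 lost its call without 248 (2.19), and LPCAT1 was called without 249, 255, 113 or 209 (1.17, 1.10, 1.00 and 1.09).

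Lists of alveolar cell identity had smaller median changes than the surfactant list, a difference that was not tested. Of 16 genes of type 2 identity 4 were called higher and 1 lower, with a median of 0.48. The 4 were LCN2, CXCL17, MUC1 and PLA2G1B, which are also genes of epithelial defense, and the transcription factors FOXA2, GATA6 and NKX2-1 had log2 fold changes of 0.10, 0.36 and 0.68, none of them called. FOXA2 and GATA6 were picked after their values were seen. The gene called lower was ETV5, a target of fibroblast growth factor signaling. Of 16 type 1 genes 0 were called higher and 1 lower, with a median of -0.19, beside 4.05% higher and 2.44% lower over all genes tested. CAV2, a coat protein of caveolae that capillaries also express, measured 278, 319 and 250.4 CPM against 724, 717, 634 and 320.3 CPM (-1.02 ± 0.24); control 209, at 320 CPM, was next to the highest exposed animal. AGER, the most used marker of type 1 cells, was at 1053, 1483 and 599 CPM against 511, 1117, 954 and 910.5 CPM and the groups overlapped (0.22 ± 0.35, limma adjusted p = 0.73). PLA2G1B lost its call without 248, 249, 092, 113 or 209 (0.93, 1.52, 1.56, 1.39 and 1.40), ETV5 lost its call without 255 (-0.94), and CAV2 lost its call without 255, 092, 101 or 113 (-0.94, -0.91, -0.91 and -0.97).

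For airway genes control 209 differed from the other controls. Of 10 airway secretory genes 3 were called higher, PIGR, LTF and WFDC2, and the median was -0.32. PIGR, which carries immunoglobulin A across epithelium, measured 61.4, 38.2 and 53.1 CPM against 6.67, 12.7, 5.53 and 26.0 CPM (2.24 ± 0.45), and WFDC2 312, 219.9 and 156 CPM against 50.9, 52.8, 50.6 and 61.9 CPM (2.03 ± 0.35). None of 12 genes of multiciliated cells was called and their median was -0.83, but in a comparison with control 209 left out the median was -0.13, and with 209 as the only control it was -2.81. For airway secretory genes the same medians were 0.22 and -0.98.

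Genes of the glucocorticoid response, a list of induced genes and of receptors and enzymes such as NR3C1 and HSD11B2, were little changed at delivery. Of 27 tested, 2 were called higher and 0 lower, with a median of 0.20, beside 4.05% higher and 2.44% lower over all genes tested. The 2 were LCN2 and the metallothionein MT2A, which is also induced by metals and cytokines, at 12.7, 8.36 and 6.09 CPM against 0.784, 3.10, 1.56 and 2.36 CPM (2.27 ± 0.41). FKBP5, a chaperone that limits receptor activity and is a common measure of steroid action, was at 25.2, 22.7 and 23.9 CPM against 19.2, 18.2, 16.0 and 13.9 CPM; the groups did not overlap, but the change was small (0.51 ± 0.17, limma adjusted p = 0.046) and was not called. TSC22D3, which mediates part of the anti-inflammatory action, was at 136, 148 and 124 CPM against 156, 143, 153 and 114 CPM (-0.05 ± 0.21), and the clock gene PER1 at 237, 270.5 and 306 CPM against 292, 295, 244 and 221 CPM (0.05 ± 0.15). Both overlapped between the groups; these and FKBP5 were picked after their values were seen. NR3C1, the glucocorticoid receptor itself, was lower in each exposed animal, at 195, 172 and 202 CPM against 274, 288, 321 and 249 CPM, a change under the minimum fold (-0.58 ± 0.15, limma adjusted p = 0.013).

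Genes that handle iron, zinc and reactive oxygen species were split. Of 26 tested, 7 were called higher and 0 lower, with a median of 0.27. SOD2, mitochondrial superoxide dismutase, rose in all exposed animals with little spread, from 84.6, 69.6, 91.8 and 79.9 CPM in the controls to 653, 579.5 and 453 CPM, and had the smallest p of the genes named here (2.78 ± 0.15, limma adjusted p = 5.4e-08). The ferritin chains FTH1 and FTL rose together (1.50 ± 0.26 and 1.47 ± 0.25), with both values uncertain because processed copies of these genes are common in genomes. The zinc importer SLC39A8 was at 768, 410.1 and 632 CPM against 99.9, 94.3, 221 and 199.8 CPM (2.03 ± 0.32) and HMOX1, which degrades heme, at 52.1, 46.3 and 29.8 CPM against 10.1, 9.57, 11.1 and 8.77 CPM (2.07 ± 0.25). Both were above all controls in each exposed animal. SOD1 and CAT, the cytosolic dismutase and catalase, were not called (-0.23 and 0.57); they were picked after their values were seen. HK2, the hexokinase of the first step of glycolysis, was at 76.6, 48.4 and 49.0 CPM against 11.0, 11.2, 14.7 and 21.9 CPM (2.00 ± 0.27). It was the only 1 of 21 genes of hypoxia and glycolysis that was called, beside 4.05% called higher over all genes tested.

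Genes of eicosanoid metabolism moved in both directions. HPGD, the enzyme that inactivates prostaglandins, fell from 752, 651, 768 and 699 CPM in the controls to 151, 189.5 and 256 CPM in the exposed animals, with no overlap (-1.88 ± 0.25, limma adjusted p = 0.00021). ALOX5 and its activating protein ALOX5AP, which start leukotriene synthesis in myeloid cells, rose to 11.1, 13.0 and 6.32 CPM and 36.3, 33.5 and 21.3 CPM (2.44 ± 0.32 and 2.93 ± 0.27), and thromboxane synthase TBXAS1 rose by 1.56 on the log2 scale. Together 3 of 18 genes of the pathway were called higher and 2 lower, the other being the prostaglandin receptor PTGER3 (-1.45 ± 0.44). PTGER3 lost its call without 249, 255, 092, 101 or 209 (-1.11, -1.47, -1.51, -1.37 and -1.36).

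Part of the cell division genes were lower. Of 27 genes of mitosis and the kinetochore 12 were called lower and 0 higher, with a median of -0.94. TOP2A, the topoisomerase of dividing cells, measured 17.2, 14.6 and 16.6 CPM in the exposed animals and 36.9, 40.2, 62.7 and 38.6 CPM in the controls (-1.43 ± 0.25, limma adjusted p = 0.0011). ANLN, which builds the contractile ring, was at 5.76, 4.71 and 5.78 CPM against 14.5, 11.7, 19.7 and 12.1 CPM (-1.39 ± 0.24), and the mitotic kinase PBK at 0.527, 1.09 and 0.848 CPM against 4.01, 3.98, 6.10 and 4.07 CPM (-2.40 ± 0.27). The exposed animals lay below all controls for these 3 genes, and control 113 was the highest control for each. None of 30 genes of DNA replication and S phase was called in either direction. Their log2 fold change was below 0 for 26 of the 30, with a median of -0.27, and their summed level was 464 to 509.7 CPM in the exposed animals and 512 to 589 CPM in the controls. The difference between the 2 lists was not tested. MKI67, the proliferation antigen, was below all controls in every exposed animal but was not called (-0.62 ± 0.25, limma adjusted p = 0.1); it was picked after its values were seen.

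Of 27 genes of interstitial collagens and their processing 4 were called lower and 0 higher, beside 2.44% called lower over all genes tested. The log2 fold change was below 0 for 23 of the 27, with a median of -0.56, and their summed level was 11990 to 15730 CPM in the exposed animals and 18220 to 27310 CPM in the controls. COL1A1 measured 2275, 1458 and 1638 CPM in the exposed animals and 3778, 2805, 5163 and 5800.0 CPM in the controls (-1.26 ± 0.32), and COL1A2, the other chain of collagen I, 2096, 1501 and 1678 CPM and 3344, 2447, 4598 and 4352 CPM (-1.04 ± 0.26). LOX, which crosslinks collagen and elastin, was at 30.4, 15.9 and 22.6 CPM against 63.3, 52.2, 61.4 and 48.2 CPM (-1.33 ± 0.25). All 3 were below all controls in each exposed animal. COL3A1 was at 3847, 2796 and 3233 CPM against 5522, 4564, 7541 and 5769 CPM, also without overlap, with a change under the minimum fold (-0.82 ± 0.21, limma adjusted p = 0.012). Elastin, ELN, gave the same picture, at 1830.0, 1657 and 1726 CPM against 2692, 2643, 2570.0 and 3359 CPM (-0.69 ± 0.13, limma adjusted p = 0.0016). MFAP5, a microfibril protein, was the only 1 of 19 elastic fibre genes called, with 1, 4 and 7 counts against 18, 19, 26 and 64. None of 19 basement membrane genes was called lower and 1 was called higher. COL1A1 lost its call without 249 (-1.10), COL1A2 lost its call without 249, 113 or 209 (-0.91, -0.92 and -0.94), and MFAP5 lost its call without 248, 249 or 209 (limma adjusted p = 0.11, 0.069 and 0.06).

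Developmental signals of the mesenchyme were lower in part. FGF10, the ligand that drives budding of the distal epithelium, measured 7.75, 4.89 and 7.05 CPM in the exposed animals and 15, 16.0, 14.9 and 10.3 CPM in the controls (-1.09 ± 0.24). FGF9, made by epithelium and mesothelium, was at 2.56, 1.30 and 1.54 CPM against 5.53, 2.45, 4.68 and 2.33 CPM and was not called (-0.99 ± 0.38, limma adjusted p = 0.093). Downstream of the receptors, the target transcription factors ETV5 and ETV4 (-1.15 ± 0.20 and -1.06 ± 0.29) and the feedback inhibitors SPRED1 and SPRY4 (-1.03 ± 0.23 and -1.03 ± 0.22) were called lower. The receptor FGFR2, by contrast, was called higher, at 438, 434 and 490.0 CPM against 232, 153, 225 and 208 CPM (1.17 ± 0.17). These 5 were the only genes called of 13 FGF receptors and feedback genes. Among 25 Wnt genes 4 were called lower and 0 higher, with a median of -0.60. They were the antagonist DKK2 (-1.77 ± 0.37), the ligand RSPO3 (-1.23 ± 0.32) and its receptors LGR4 and LGR6 (-1.29 ± 0.16 and -1.01 ± 0.31), while the target AXIN2 was at 107, 102 and 101 CPM against 114, 80.7, 102 and 110.2 CPM (0.03 ± 0.13, picked after its values were seen). Of 26 genes of TGF-β and BMP signaling 4 were called lower and 0 higher, with a median of -0.41. CCN2, a matricellular protein induced by TGF-β and stretch, was at 74.2, 35.5 and 46.0 CPM against 226, 233, 156 and 150.5 CPM (-1.92 ± 0.43), BMP7 at 9.52, 9.34 and 10.9 CPM against 26.6, 24.2, 23.1 and 18.8 CPM (-1.21 ± 0.20), and GREM1, which binds BMP ligands, at 2.00, 1.92 and 1.16 CPM against 5.36, 5.18, 5.29 and 11.5 CPM (-1.92 ± 0.38). For these 3 genes every exposed animal was below every control. FGF10 lost its call without 249 (-0.87), ETV4 lost its call without 249, 255 or 113 (-0.97, -1.04 and -1.0), SPRED1 lost its call without 249, 092, 101 or 113 (-0.90, -0.97, -0.95 and -0.96), SPRY4 lost its call without 249, 101 or 113 (-0.87, -0.89 and -0.98), RSPO3 lost its call without 248 (-0.97), and LGR6 lost its call without 248, 249, 255, 092, 101 or 209 (-0.99, -1.08, -0.95, -0.96, -1.01 and -1.0).

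Among 22 genes of mesenchymal development 4 were called lower and 0 higher, with a median of -0.62. They were FGF10, GREM1, the serotonin receptor HTR4 (-1.25 ± 0.31) and the transcription factor TBX18, which had 1, 16 and 2 counts against 68, 10, 39 and 45 and overlapped between the groups. SIX2 and PTN were not called; SIX2 had 135 counts in control 209 and at most 26 in any other of the 7 animals, and PTN was at 3.61, 10.7 and 8.17 CPM against 13.0, 9.47, 30.7 and 12.8 CPM (-1.11 ± 0.46). The gap junction gene GJA1 was called lower, at 76.8, 68.5 and 48.4 CPM against 179, 171, 176 and 119 CPM with no overlap (-1.32 ± 0.22). JUN, a stress-related transcription factor, had a log2 fold change of -0.21 ± 0.46 and was not called. HTR4 lost its call without 249 (-1.11).

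Of 24 endothelial genes 3 were called lower, HPGD, EDNRB and ANGPT1, and 1 higher, ACKR1, with a median of -0.17, beside 2.44% lower and 4.05% higher over all genes tested. EDNRB, the endothelin receptor of a capillary type that lies against type 1 cells, fell from 596, 349.7, 305 and 251 CPM to 101, 137 and 104 CPM (-1.65 ± 0.23), and ANGPT1, a pericyte ligand that stabilizes vessels, from 155, 146, 174 and 95.5 CPM to 76.5, 56.3 and 66.8 CPM (-1.08 ± 0.22). ACKR1, a chemokine carrier of venules, rose from 3.09, 1.02, 2.02 and 2.07 CPM to 7.75, 5.11 and 6.12 CPM (1.67 ± 0.32). None of the 3 overlapped between the groups. RGS5, a pericyte marker, was the only 1 of 17 smooth muscle and pericyte genes called, at 149, 166 and 171 CPM against 356, 425, 448 and 304 CPM (-1.23 ± 0.31), and the median of that list was -0.62. Other genes with large falls in CPM were CALCRL, a receptor for adrenomedullin (-1.69 ± 0.43), CLIC4 (-1.73 ± 0.25), NREP (-1.30 ± 0.17) and KCTD12 (-1.32 ± 0.24). ANGPT1 lost its call without 249 or 113 (-0.94 and -0.97), RGS5 lost its call without 248 or 249 (-1.17 and -1.22), and CALCRL lost its call without 248 or 249 (-1.48 and -1.68).

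Some cartilage and nerve genes were lower, and here control 209 was far from the other controls. Of 18 airway cartilage genes 3 were called lower, with a median of -0.52 that was -0.05 with 209 left out and -1.69 with 209 as the only control. COL2A1, the collagen of cartilage, was at 4.52, 3.19 and 3.20 CPM against 5.10, 8.04, 23.9 and 87.7 CPM (-2.24 ± 0.71), and the control nearest to the exposed animals was only slightly above them. MATN3, a cartilage matrix protein, was at 4.03, 4.82 and 9.17 CPM against 27.8, 26.9, 35.5 and 56.3 CPM (-2.62 ± 0.40, limma adjusted p = 0.00052). Of 12 neural and Schwann cell genes 3 were called lower, and the median of -0.58 was -0.19 without 209 and -1.52 against it alone. Medians without 209 and against 209 alone were 2.52 and 2.49 for macrophages, 2.28 and 2.14 for neutrophils, 2.03 and 1.77 for acute phase, 1.27 and 1.07 for chemokines, 1.25 and 1.30 for complement, 1.25 and 1.65 for cytokines, 0.89 and 1.36 for lymphocytes and 1.10 and 0.75 for surfactant. With 209 as the only control, genes of many lists lost their call. Among surfactant genes these were SFTPA1, SFTPB, ABCA3 and SFTA2 (2.14, 1.35, 1.17 and 1.73). Examples from other lists were CD68 (2.67), PIGR (0.95), TOP2A (-1.25), COL1A1 (-1.71) and FGF10 (-0.66), so the loss was not particular to surfactant. Medians for mitosis were -1.04 and -0.79, and for collagens -0.55 and -0.54. COL2A1 lost its call without 248, 249, 255 or 113 (-2.40, -2.13, -2.16 and -2.08), and without 209 its log2 fold change was -1.46. The part of airway and cartilage tissue in the differences between the libraries was not tested.

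**Figure D3:**
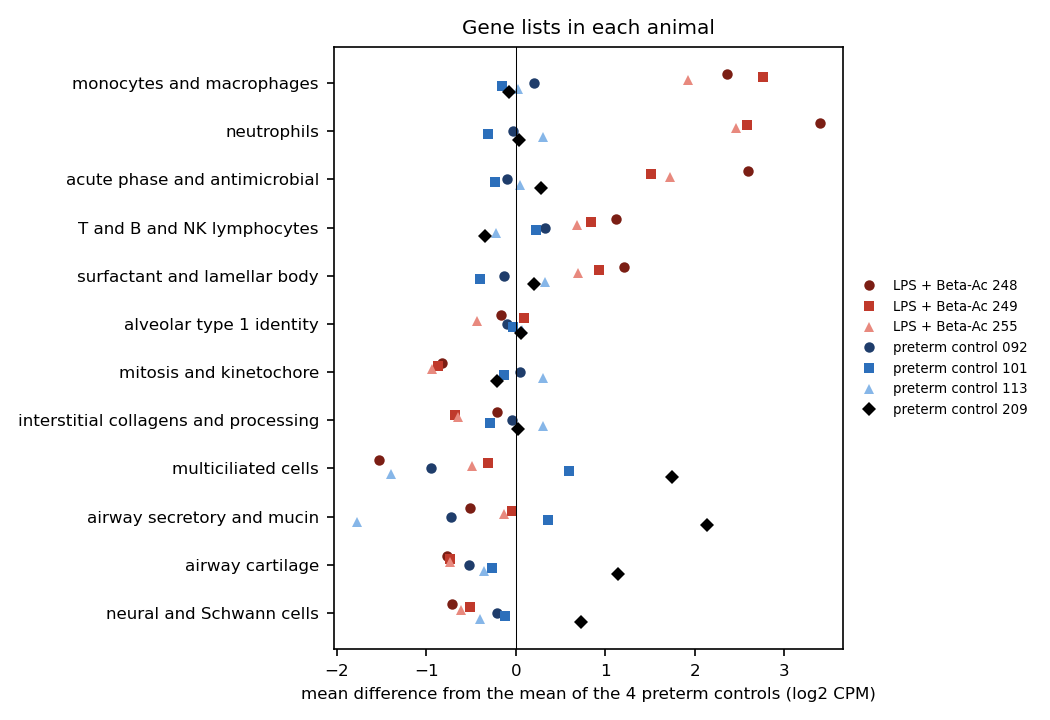
For 12 gene lists, each point is 1 animal and gives the mean difference of its log2 CPM from the mean of the 4 preterm controls over the genes of the list. The 3 exposed animals (red) are right of all controls for the myeloid, acute phase, lymphocyte and surfactant lists and left of them for mitosis, while control 209 (black) is far right of all other animals for multiciliated, airway secretory, cartilage and neural genes.

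Several genes outside these lists were lower by a large factor. SMPX, a small muscle protein, was at 1.09, 1.27 and 1.77 CPM against 13.2, 7.81, 11.3 and 9.42 CPM (-2.86 ± 0.47). NMNAT2, which makes the cofactor NAD in neurons, was at 2.56, 2.35 and 3.12 CPM against 16.9, 17.1, 18.8 and 19.2 CPM (-2.72 ± 0.27, limma adjusted p = 1.4e-05). ERMN, known from myelin-forming cells, was at 15.8, 14.1 and 8.74 CPM against 89.9, 85.5, 99.4 and 39.1 CPM (-2.56 ± 0.34). For SMPX, NMNAT2 and ERMN the lowest control was more than 2-fold above the highest exposed animal. The retinol carrier RBP4 (-2.01 ± 0.35) was 1 of 2 genes called lower of 16 in the retinoic acid pathway, which had a median of -0.38. The other, CRABP2, had 7, 13 and 9 counts against 33, 29, 36 and 55. CRABP2 lost its call without 248, 249, 255, 092, 101, 113 or 209 (limma adjusted p = 0.14, 0.084, 0.1, 0.082, 0.074, 0.073 and 0.09).

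Some genes used in most cell types also differed. The 20 genes described here were picked after their values were seen, 10 lower and 10 higher, and are shown as values only. GMFB, a regulator of actin branching, was at 25.5, 22.6 and 26.2 CPM in the exposed animals and 89.2, 81.9, 103 and 52.7 CPM in the controls. CD164, a sialomucin, was at 123, 107 and 106 CPM against 374, 306, 359.9 and 227 CPM, and RNF11, a ubiquitin ligase, at 69.2, 58.7 and 65.2 CPM against 203, 157, 197 and 116 CPM. In each of these the exposed animals were close together and 209 was the lowest control. In the other direction, NFAT5, the transcription factor of osmotic stress, was at 38.2, 28.9 and 13.7 CPM against 2.44, 3.33, 4.01 and 14.1 CPM, and RICTOR, a subunit of mTORC2, at 60.5, 43.1 and 23.8 CPM against 5.10, 17.1, 10.7 and 15.4 CPM. Here the exposed animals were spread over more than 2-fold, and 209 reached the lowest of them for NFAT5. Among the 20, 209 was the lowest control for 9 of the 10 lower genes and the highest for 6 of the 10 higher genes. Of all 469 genes called lower it was the lowest control for 302, more often than any other control, and its median difference from the mean of the controls over these genes was -0.32. Of the 778 genes called higher it was the highest control for 235 and control 092 for 248, and the median difference of 209 over them was 0.06. How often 209 was the lowest or highest control over all genes tested was not counted. These counts therefore cannot be read as particular to the called genes. The cause of the differences was not tested.

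**Figure D4:**
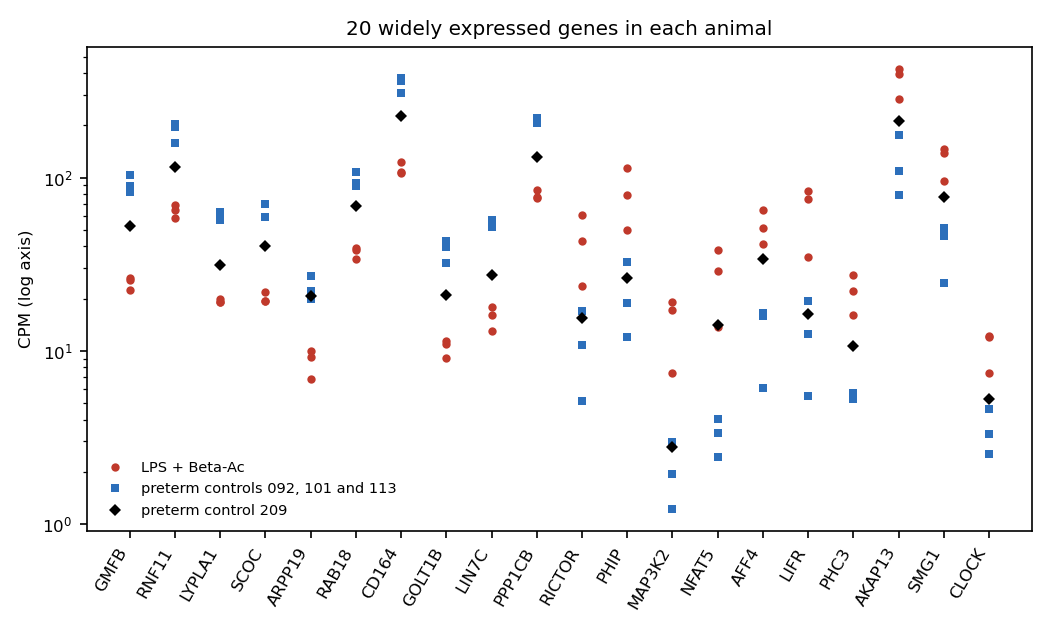
CPM on a log axis of 20 genes found in most cell types, in the 3 exposed animals (red), in preterm controls 092, 101 and 113 (blue) and in preterm control 209 (black). The 10 genes at the left are lower in LPS + Beta-Ac and the 10 at the right higher, and control 209 is the lowest control for 9 of the former and the highest for 6 of the latter, as for GMFB with 52.7 CPM against 22.6 to 26.2 CPM in the exposed animals.

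LPS + Beta-Ac was also compared directly with LPS alone in the same fit, since separate comparisons with shared controls do not test a difference between the exposures. In this direct comparison 20 genes were called, 0.104% of those tested, and all 20 were higher with Beta-Ac added. At an unadjusted p below 0.05 the number was 925, fewer than the 1 in 20 of all genes tested that chance gives. SOD2 measured 172, 179 and 209 CPM in the LPS 5d animals, against 653, 579.5 and 453 CPM with the combined exposure, a log2 difference of 1.58 ± 0.16 (SE, n = 3 and 3; limma adjusted p = 0.00073). The immunoglobulin receptor FCGR2A was at 14.8, 16.7 and 23.7 CPM in the LPS 5d animals against 62.3, 44.6 and 51.5 CPM (1.53 ± 0.20, limma adjusted p = 0.0088). TLR4 was at 8.31, 5.95 and 9.73 CPM against 32.3, 23.2 and 20.8 CPM (1.66 ± 0.27), CD163 at 26.1, 18.3 and 24.5 CPM against 92.8, 122 and 61.9 CPM (1.97 ± 0.35), and IDO1 at 27.9, 22.6 and 29.2 CPM against 97.0, 136 and 62.8 CPM (1.83 ± 0.31). For all 5 of these genes the exposed groups did not overlap. Others called were the platelet-activating factor receptor PTAFR (1.46 ± 0.23), the neutrophil antigen CD177 (1.70 ± 0.29), the leukocyte receptor LILRA5 (1.78 ± 0.30), whose family holds near-identical copies, and C1H1orf162 (1.75 ± 0.29). The call rested on few animals, since with animal 255 left out 57 genes were called and with LPS 5d animal 240 left out 2. Medians of the direct difference were 1.16 for macrophage and 1.32 for neutrophil genes, with 1 and 0 genes called, 0.31 for mitosis, 0.17 for surfactant and -0.11 for collagens, with 0 called in each, beside -0.000522 over all genes tested. No gene was called lower than with LPS alone with all animals in the fit, while with 255 left out 96.49% and with control 101 left out 94.74% of the genes called were higher. Among matrix genes the log2 difference was -0.43 ± 0.34 for COL1A1 and -0.46 ± 0.27 for LOX.

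**Figure D5:**
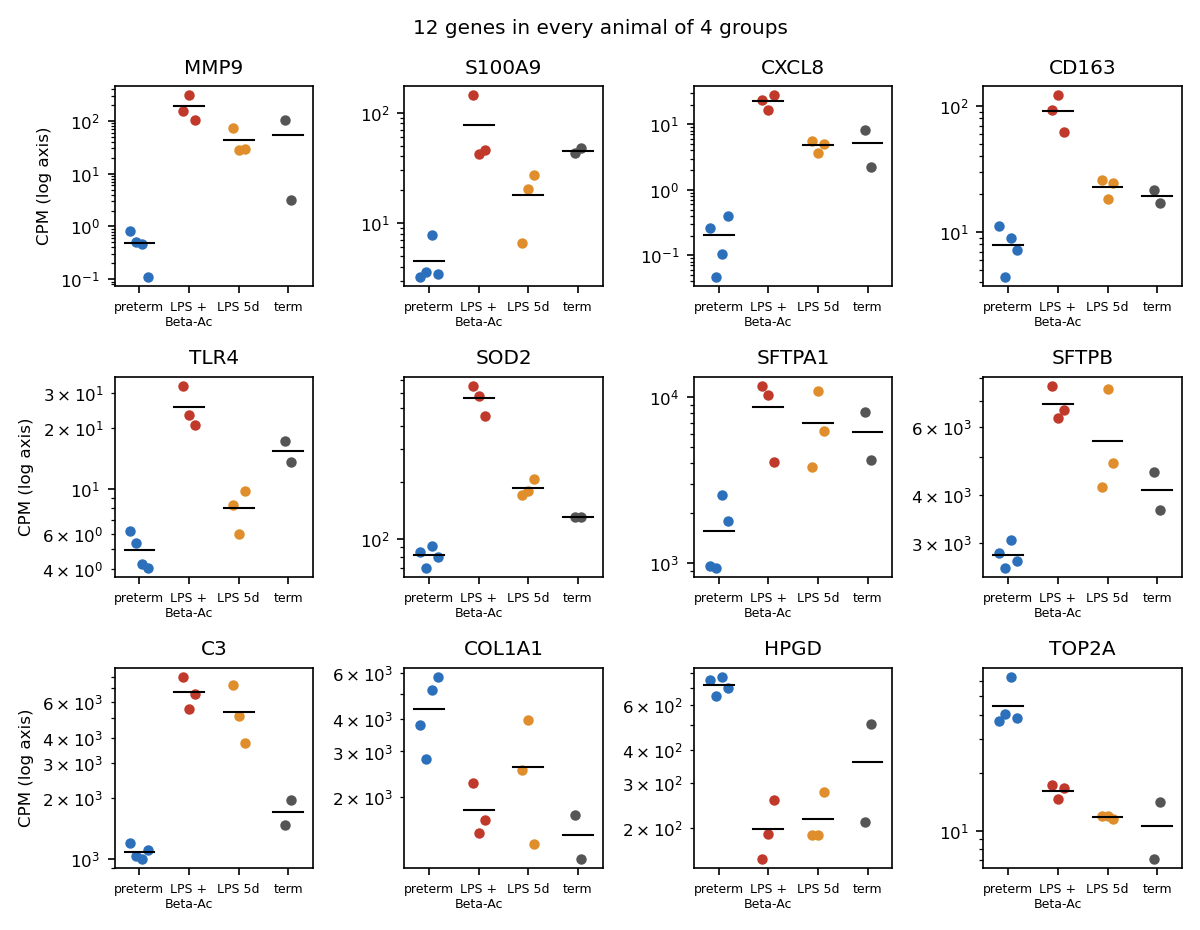
CPM on log axes of 12 genes in every animal of 4 groups, with the mean of each group as a bar. For SOD2, TLR4 and CD163 all LPS + Beta-Ac animals lie above all LPS 5d animals, while for C3, SFTPA1, HPGD and TOP2A the 2 exposures overlap or lie close and are apart from the preterm controls.

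Set beside the other groups, each against the same preterm controls, LPS 5d gave 928 called genes (4.83%) and term 397 (2.07%). Because the controls are shared, the values below are given side by side only. Mitosis genes had a median of -0.94 with LPS + Beta-Ac, -1.27 with LPS 5d and -1.40 at term, and TOP2A -1.43, -1.89 and -2.11. Macrophage genes had medians of 2.52, 1.25 and 1.21, and MMP9 log2 fold changes of 8.51, 6.39 and 5.29. The 2 term animals were unlike each other for the macrophage list. Its mean log2 difference from the controls was 2.27 in term animal 200 and 0.69 in 201. In the exposed animals 248, 249 and 255 it was 2.36, 2.76 and 1.92. Surfactant genes had medians of 1.02, 0.83 and 0.80. Collagen genes had medians of -0.56, -0.38 and -0.51, and COL1A1 -1.26, -0.83 and -1.58. Complement genes had medians of 1.31, 1.00 and 0.55 and C3 at 2.62, 2.26 and 0.65. Feedback genes of FGF signaling had medians of -0.35, -0.27 and -0.21, with ETV5 at -1.15, -1.04 and -0.25. Differences from term were not tested.

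The counts of the lists above, and of the other lists given here, stand beside 4.05% called higher and 2.44% called lower over all genes tested. Among 18 metalloproteinases and inhibitors 4 were called higher and 0 lower, among 24 genes of cholesterol and fatty acid synthesis 2 higher and 0 lower, and among 14 of alveolar fibroblasts and lipofibroblasts 1 higher and 1 lower. No gene was called among 19 ribosomal protein genes, 19 of the unfolded protein response, 17 immediate early genes, 20 of the IGF axis, 13 of the Hedgehog pathway, 9 of basal cells and keratins and 9 of neuroendocrine cells. Of 15 genes of lung liquid transport 1 was called higher, of 10 platelet genes 1 higher, of 9 mast cell and eosinophil genes 2 higher, and of 10 lymphatic genes 1 lower.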

How the data were processed

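Lung RNA of 7 fetuses, 3 LPS + Beta-Ac and 4 preterm controls, was analysed with that of the other 9 animals of the series, which add to the estimate of the spread. Per the labels and methods, the authors sequenced 75 bp paired-end reads, assigned them with kallisto to the rhesus build Mmul_10, used tximport to sum them by gene, and deposited whole-number counts for each Ensembl gene and animal, which are neither normalized nor filtered. For the annotation release and tool versions, the sources used here name none. Count models were not run here, and the values were tested on a log scale. Counts of 22515 genes were scaled with TMM, trimming 30% of log ratios and 5% of mean levels at each end, and log2 CPM was taken after adding a prior count of 2. Genes with at least 0.371 CPM in 2 animals and 15 counts in total were kept, which left 19199. These were fitted with limma 3.58.1 (trend and robust options) in R 4.3.3 with 1 mean for each of 5 groups over 16 animals. Tests were two-sided and adjusted by Benjamini-Hochberg over all genes tested, and a gene was called at an adjusted p below 0.05 and a fold of at least 2. Fold changes are on the log2(CPM) scale with that prior, which understates changes of low genes, and no fold is given for a mean under 10 counts in either group. Libraries hold 20169363 to 48052891 counts, and p-values measure the spread between animals as labelled. Pairs of animals within a group differed by far more than sampling noise.

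Symbols came from a gene table by Ensembl ID, and 66 symbols of more than 1 ID were left out of lists. The 51 lists were written from general knowledge and hold 982 genes, of which 898 were tested. Lists and members were chosen with earlier results of these data known, so they are described by counts and medians without a test. Some genes belong to several lists, so the counts of different lists are not independent. Genes named are, for each direction, the 15 largest non-overlapping changes, the 10 largest differences in CPM, up to 5 called genes near 0 in 1 group, up to 5 called genes per list, the defining markers, the 10 largest changes against LPS 5d and genes the study names; others are marked as picked after their values were seen. Alternatives were the scaling, the filter, the prior count, voom weights, the 7 animals alone, no minimum fold and each animal left out, and, chosen after seeing the data, a Y-linked term, control 209 alone and each LPS 5d animal left out. The steps were tested on simulated data. Promoter motifs and sequences were not used here, and some genes that this rule selects are not reported here.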

Additional observations from a re-analysis of the deposited data

Results flagged for a closer look

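In the 4 preterm controls, the value of 1 animal lay far from the other 3 for 27 of the 164 genes named, by Dixon's test at its 95% critical value. Chance alone gives about 1 such gene in 20 among genes chosen without their values. Some of these genes were picked after their values were seen, so the 27 cannot be held against that rate. Groups of 3 were not tested. Control 209 stood apart for 14 of the 27. It was high for LYZ (148 CPM), SCGB3A1 (203 CPM), ELN (3359 CPM), MUC1 (136 CPM), CD14 (43.5 CPM), NFAT5 (14.1 CPM), GREM1 (11.5 CPM), PI15 (9.78 CPM), MFAP5 (2.33 CPM), REL (2.07 CPM), MPO (1.24 CPM) and CXCL13 (0.0728 CPM), and low for GJA1 (118.6 CPM) and SPRED1 (46.6 CPM). For GJA1 and SPRED1 and for MUC1, CD14, NFAT5, REL, MPO and CXCL13 it lay toward the exposed animals. Control 092 was high for C1QA (17.5 CPM), C1QB (14.5 CPM), CCL19 (0.218 CPM), MS4A1 (4.75 CPM) and MEPE (11.4 CPM). Control 113 was high for TOP2A (62.7 CPM), PBK (6.10 CPM), PTN (30.7 CPM), S100A9 (7.73 CPM) and IL6 (0.248 CPM), and control 101 was low for ALOX5 (1.06 CPM), KYNU (0.555 CPM) and LILRA3 (1.02 CPM).

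The direct comparison of the 2 exposures differed for 10 of the genes named, all higher with LPS + Beta-Ac than with LPS 5d. The log2 differences were 1.58 for SOD2, 1.53 for FCGR2A, 1.66 for TLR4, 1.46 for PTAFR, 1.33 for C5AR1, 1.75 for C1H1orf162, 1.83 for IDO1, 1.78 for LILRA5, 1.70 for CD177 and 1.97 for CD163, with limma adjusted p from 0.00073 for SOD2 to 0.0496 for CD163.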

How the results depend on the processing

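The number of genes called against the preterm controls, 1247, stayed between 1127 and 1283 under library totals, median-of-ratios size factors, no or a stricter filter, a prior count of 0.5, voom weights, the 7 animals alone and, chosen after seeing the data, a Y-linked term. With 1 animal left out it was 969 to 1485, with 582 to 857 higher and 329 to 628 lower. Without a minimum fold it was 3317, 1364 higher and 1953 lower, and with control 209 as the only control, also chosen after seeing the data and with its spread taken from the other groups, 297, 247 higher and 50 lower. These 2 settings moved the share called higher from 62.39% to 41.12% and 83.16%. The 20 genes called against LPS 5d became 3 with voom weights, 5 with the Y-linked term, and 2 to 57 with 1 animal left out: 5 without 248, 4 without 249, 57 without 255, 6 without control 209, and 6, 2 and 12 without LPS 5d animals 239, 240 and 242, the last 3 chosen after seeing the data. The cause was not tested. Of the 131 named genes that were called, 56 lost the call in none of the 16 settings. A gene left untested in a setting was not counted as losing its call there. The stricter filter tested 159 of the 164 named genes, and the 7 animals alone 163. The most calls were lost with 209 as the only control, and no other setting lost more than 21. Changes that turned in sign, none of them called, were with 209 alone AXIN2 (-0.0861), FABP4 (0.23), HBA1 (-0.0891), JUN (0.78), LAMP3 (-0.55) and TSC22D3 (0.26), with the Y-linked term IFIT1 (0.00909) and TSC22D3 (0.0576), and with 1 animal left out AGER (-0.0535 to 0.57), AXIN2 (-0.0733 to 0.0945), HBA1 (-0.18 to 0.34), JUN (-0.54 to 0.0651), LYZ (-0.57 to 0.11), PER1 (-0.0428 to 0.14) and TSC22D3 (-0.15 to 0.0151), all on the log2 scale. No paired analysis was possible because the groups share no replicate numbers. With 3 and 4 animals, changes near 2-fold in genes that vary between animals are the hardest to detect, and airway content, Y-linked transcripts and delivery day also vary among these animals.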

Other observations

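Several further genes with large rises, given here as values, were of myeloid metabolism and receptors. KYNU, kynureninase of tryptophan breakdown downstream of IDO1, measured 19.3, 25.2 and 9.79 CPM in LPS + Beta-Ac and 1.31, 0.555, 1.38 and 1.42 CPM in the preterm controls (3.85 ± 0.33). HK3, a hexokinase of myeloid cells, was at 37.9, 95.0 and 23.1 CPM against 2.83, 1.76, 2.06 and 2.07 CPM (4.30 ± 0.68), so all exposed animals were above all controls but 249 was more than 2-fold above the others. Of the leukocyte immunoglobulin-like receptors, a family of near-identical copies whose separate values are uncertain, LILRA3 (3.98 ± 0.43), LILRA1 (4.38 ± 0.57) and LILRB4 (3.49 ± 0.56) were called higher. SLC28A3, a nucleoside transporter, was at 44.1, 3.87 and 9.13 CPM against 0.0871, 0.139, 1.21 and 1.64 CPM (4.50 ± 1.11), and most of its mean came from animal 248. MEPE, a matrix phosphoglycoprotein known from bone, was at 12.9, 26.0 and 21.5 CPM against 11.4, 0.462, 0.0709 and 0.764 CPM (4.40 ± 1.19), with 1 control, 092, close to the exposed animals. SLC28A3 lost its call without 248 (3.54), and MEPE lost its call without 249, 255, 101 or 113 (4.21, 4.32, 4.14 and 3.49).

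Further genes with large falls included FREM3, an extracellular matrix protein, at 3.09, 2.50 and 2.04 CPM against 15.9, 22.8, 10.1 and 15.8 CPM (-2.60 ± 0.46), PI15, a secreted protease inhibitor, at 1.02, 2.43 and 1.27 CPM against 5.45, 5.73, 6.14 and 9.78 CPM (-2.11 ± 0.33), and KCNIP1, a modulator of potassium channels, at 1.47, 0.978 and 1.50 CPM against 7.23, 5.13, 7.84 and 4.15 CPM (-2.13 ± 0.30). In each of them the groups did not overlap. At term, against the same controls, the log2 fold change was -2.81 for FREM3, 0.06 for PI15 and -2.41 for KCNIP1.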
